A study of Mus musculus with 8 samples.

Results

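The ILK-PINCH-parvin complex was described by the transcripts of 7 genes, Ilk, Lims1, Lims2, Parva, Parvb, Parvg and Rsu1, out of 24346 genes measured. The genes were selected on measured values, because the Parvb transcript was much lower in Med23-/- than in Med23+/+ cells and its paralogs could be set beside it. The genotype comparison is therefore given for these genes as a description, with no p-value. Their calls in the fit over all genes are listed further on, and nothing is read from them. Of the 7 genes, 6 had a mean of at least 1 FPKM over all libraries and Parvg did not. FPKM is the number of fragments of a gene divided by its transcript length and by the size of the library, so it is a level per length and can be compared between genes.

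RNA-seq was performed on 8 libraries of mouse immature oligodendrocytes (iOLs), 4 labelled WT (Med23+/+) and 4 labelled MED23KO (Med23-/-). Med23 encodes a subunit of Mediator, the complex that links transcription factors to RNA polymerase II. Both groups came from primary oligodendrocyte precursor cells (OPCs) that were immunopanned from brain, taken at P7 according to the study's methods, and expanded with PDGF-AA and NT-3. Both received 15 nM T3, the active thyroid hormone, and 10 ng/mL ciliary neurotrophic factor (CNTF) for 1 day. The Med23-/- cells carried floxed Med23 alleles that Olig1-Cre removes in the oligodendrocyte lineage, so only cells that expressed this Cre lose the gene. Control mice in the study were Med23 fl/fl without Cre, and the sources used here do not say whether the Med23+/+ cultures had this genotype or whether the libraries of a genotype came from separate animals.

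The complex sits at the cytoplasmic tail of integrins, the receptors through which cells hold on to the extracellular matrix. ILK, a pseudokinase, is the hub: its ankyrin repeats bind a PINCH protein and its kinase-like domain binds a parvin, which in turn binds actin. PINCH1 and PINCH2, encoded by Lims1 and Lims2, are alternative LIM-domain adaptors, and α-parvin, β-parvin and γ-parvin, encoded by Parva, Parvb and Parvg, are alternative actin-binding subunits. RSU1 binds PINCH1. In oligodendrocytes, integrin signaling through ILK has been tied to process extension and myelination.

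Parvb and Parvg lie side by side on mouse chromosome 15 of mm10 (GENCODE vM21 annotation), Parvb at chr15:84232043-84315688 and Parvg at chr15:84324026-84342978, both on the plus strand. Ilk is at chr7:105736592-105742925 and Parva at chr7:112427505-112591692, both on the plus strand. Lims1 is at chr10:58323466-58424691 on the plus strand and Rsu1 is at chr2:13076821-13271415 on the minus strand. All 7 genes, Lims2 included, are protein-coding genes.

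The sequence before the transcription start is shown for Parvb, the gene that differed most between the genotypes, and for Ilk, the hub of the complex. Each is the 100 bases before a RefSeq start on the plus strand of GRCm38.p6, chr15:84231943-84232042 for Parvb and chr7:105736490-105736589 for the upstream start of Ilk. Capitals mark matches to GGGCGG on either strand, the core of the GC box that factors of the Sp family bind.
Parvb: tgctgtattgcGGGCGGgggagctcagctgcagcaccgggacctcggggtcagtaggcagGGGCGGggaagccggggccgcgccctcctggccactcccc
Ilk: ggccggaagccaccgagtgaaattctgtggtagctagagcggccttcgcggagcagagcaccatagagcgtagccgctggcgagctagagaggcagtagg

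The Parvb stretch held 2 such matches at 75.0% GC, and the Ilk stretch held 0 at 62.0% GC. In the 250 bases before the start, Parvb again held 2 matches and Rsu1 held 2. Of 3 RefSeq starts of Lims1, 1 had 3 matches and the others 0. Alternative starts of the same gene differed, since the second Ilk start and the second Parvg start had 3 and 2 matches and the first of each had 0. A GGGCGG match was present in 32.7% of 32851 promoters of this length, so its presence is common. The longer motif GGGGCGGGG, which contains GGGCGG, matched once before Parvb, once before the second Ilk start and at 2 places before the second Parvg start, and it was found in 10.4% of promoters. AGGTCA, the half-site that thyroid hormone receptors bind, was searched on both strands, had 0 matches before any of these genes, and was found in 14.0% of promoters. Parva and Lims2 were not searched. A match is a description of the letters and not of binding.

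Med23 itself was checked first. It had 12.7, 12.2, 12.6 and 12.6 FPKM across the Med23+/+ libraries, against 8.40, 7.93, 8.49 and 8.21 FPKM across the Med23-/- libraries. The libraries labelled Med23-/- were all below the Med23+/+ libraries (log2 fold change -0.55, SE 0.07, limma adjusted p = 0.000353), and the Med23-/- mean was still 0.658 of the Med23+/+ mean. FPKM over the whole gene cannot separate transcripts with and without the floxed part. All 10 oligodendrocyte lineage markers had a mean of at least 1 FPKM, and their sum ran from 2588 to 2882 FPKM in Med23+/+ and, without overlap, from 1926 to 2494 FPKM in Med23-/- libraries. Its members went opposite ways: the precursor markers Pdgfra (105 to 141 FPKM in Med23+/+, 325 to 347 FPKM in Med23-/-) and Cspg4 (34.3 to 51.5 and 91.7 to 118 FPKM) were higher in every Med23-/- library. Cnp (404 to 488 and 127 to 252 FPKM) and Mbp (51.0 to 73.8 and 9.77 to 16.3 FPKM), which encode myelin proteins, were lower in every one, as Parvb was. Sox10 (220 to 269 and 149 to 212 FPKM), Gpr17 (657 to 721 and 187 to 481 FPKM) and Mog were also lower in every one. Olig1 (473 to 877 and 530 to 776 FPKM) and Olig2 (221 to 303 and 269 to 508 FPKM) overlapped. The part of these marker differences in the results that follow was not tested. The 13 microglial and leukocyte markers were all below a mean of 1 FPKM (sums 1.88 to 4.02 and 3.37 to 5.15 FPKM). Endothelial markers summed to between 0.544 and 1.24 FPKM and to between 1.24 and 3.22 FPKM, with Tie1 at 0 in every library. The sums of 10 mural and fibroblast markers (4.40 to 16.2 and 5.65 to 22.8 FPKM) and of 8 astrocyte markers (128 to 183 and 94.2 to 147 FPKM) overlapped between the genotypes. Of the astrocyte markers, Fgfr3 (20.9 to 28.9 FPKM in Med23+/+, 3.61 to 5.79 FPKM in Med23-/-) and Gfap were lower in every Med23-/- library. Slc1a2 (7.72 to 13.6 and 14.5 to 22.2 FPKM) was higher in every one, and the other astrocyte markers overlapped. The sums of the 9 neuron markers did not overlap, at 90.4 to 123 FPKM in Med23+/+ and 163 to 262 FPKM in Med23-/- libraries. Among these markers only Slc17a7 overlapped by itself (0.216 to 1.51 and 0.371 to 6.20 FPKM). The part of the difference in neuron sums in the results that follow was not tested. The table used here gives no read counts, and sequencing depth is therefore not known. For genes under 0.1 FPKM, the commonest ratio of a library's value to that of Med23+/+ replicate 1 ran from 0.735 to 0.966. This was taken as an estimate of the relative worth of 1 read.

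Parvb differed most among these genes. Parvb, the β-parvin gene, had 29.8, 27.6, 31.3 and 28.4 FPKM across the Med23+/+ libraries, against 1.84, 1.60, 2.26 and 1.57 FPKM across the Med23-/- libraries. The libraries of each genotype lay close together and far from those of the other. The means were 29.3 ± 1.64 and 1.82 ± 0.319 FPKM (SD, n = 4 each), so the Med23-/- mean was 0.0621 of the Med23+/+ mean. On the log2(FPKM + 1) scale, which understates the change of low genes, the log2 fold change was -3.43 (SE 0.10), the 9th lowest of 12328 genes tested. In bulk RNA, fewer cells that express Parvb and less Parvb RNA per cell cannot be told apart.

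Parva, which encodes α-parvin, had 4.18, 5.61, 3.65 and 4.69 FPKM in Med23+/+ and 6.49, 5.52, 6.43 and 6.61 FPKM in Med23-/- libraries. The genotypes overlapped through replicate 2 of each, the highest of the Med23+/+ and the lowest of the Med23-/- libraries. The means were 4.53 ± 0.838 and 6.26 ± 0.503 FPKM (log2 fold change 0.40, SE 0.12). Parva thus differed from Parvb in direction and in size. Parvg, the γ-parvin gene that is known mainly from blood cells, had 0.0940, 0.134, 0.154 and 0.236 FPKM in Med23+/+ and 0.0298, 0.0684, 0.109 and 0.0477 FPKM in Med23-/- libraries. Every value was below 1 FPKM and the genotypes overlapped, so Parvg was barely detected in either and no fold change is read from it.

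**Figure D1:**
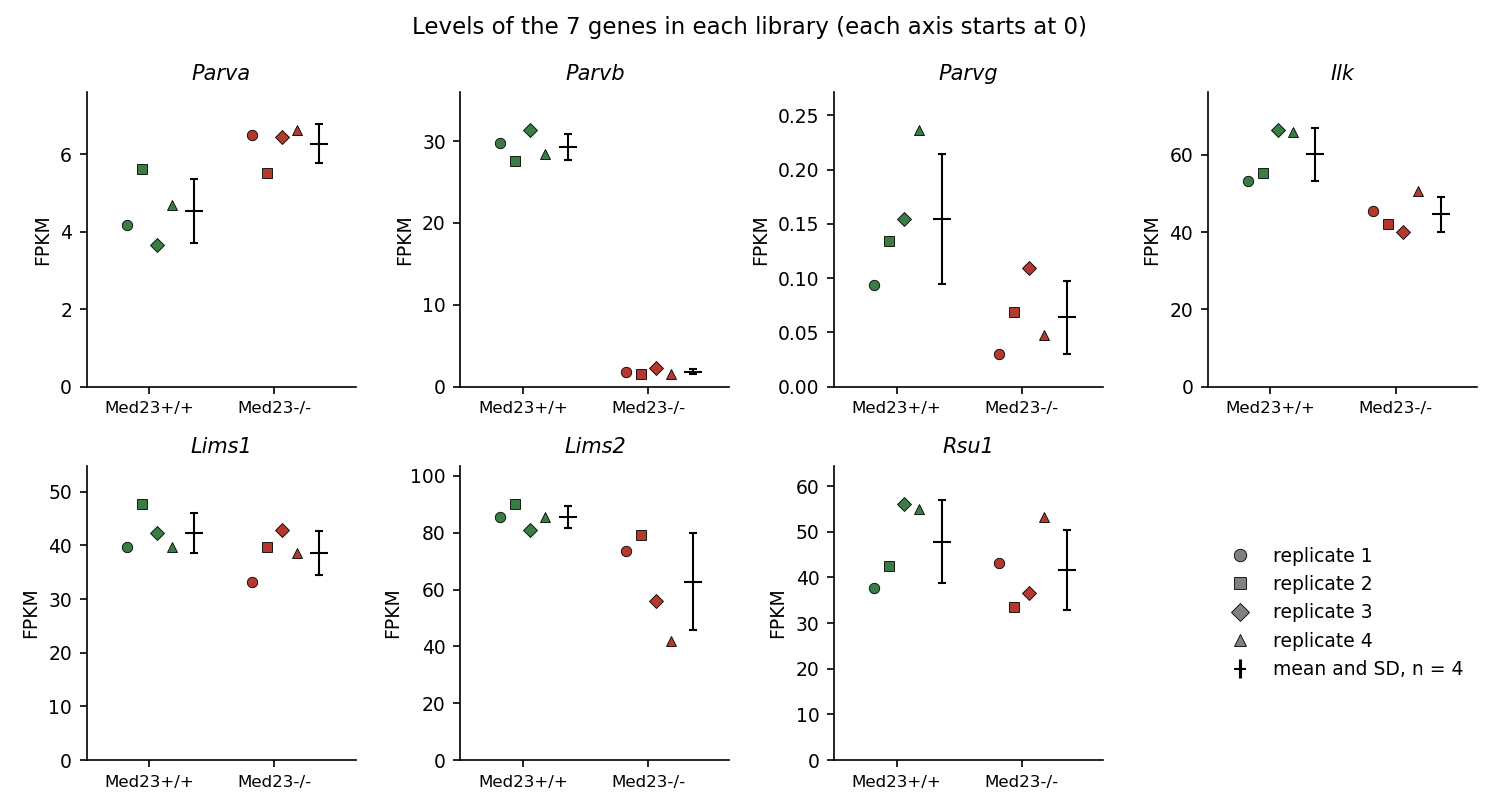
FPKM of the 7 genes in each library (y axis, linear from 0, a separate scale for each gene) for Med23+/+ (green) and Med23-/- (red), with the replicate number shown by the marker and the mean and SD (n = 4) in black. Parvb lies between 27.6 and 31.3 FPKM in Med23+/+ and between 1.57 and 2.26 FPKM in Med23-/- libraries, whereas the other genes differ less.

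Summed over the 3 genes, parvin transcripts came to 34.1, 33.3, 35.1 and 33.3 FPKM across the Med23+/+ libraries, against 8.37, 7.19, 8.80 and 8.23 FPKM across the Med23-/- libraries. The sum in Med23-/- was 0.240 of that in Med23+/+ (8.15 ± 0.685 against 34.0 ± 0.848 FPKM), the higher Parva level being small beside the lower Parvb level. Leaving out each library in turn gave ratios of 0.233 to 0.249. Parvb made up 86.2 ± 2.79% of the parvin sum in Med23+/+ and 22.3 ± 2.71% in Med23-/- libraries. Parva made up 13.4% on average (10.4% to 16.8%) and 76.9% (73.1% to 80.3%). The leading parvin transcript was therefore Parvb in every Med23+/+ library and Parva in every Med23-/- library, and the ratio of Parvb to Parva went from 6.68 ± 1.57 to 0.291 ± 0.0469.

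**Figure D2:**
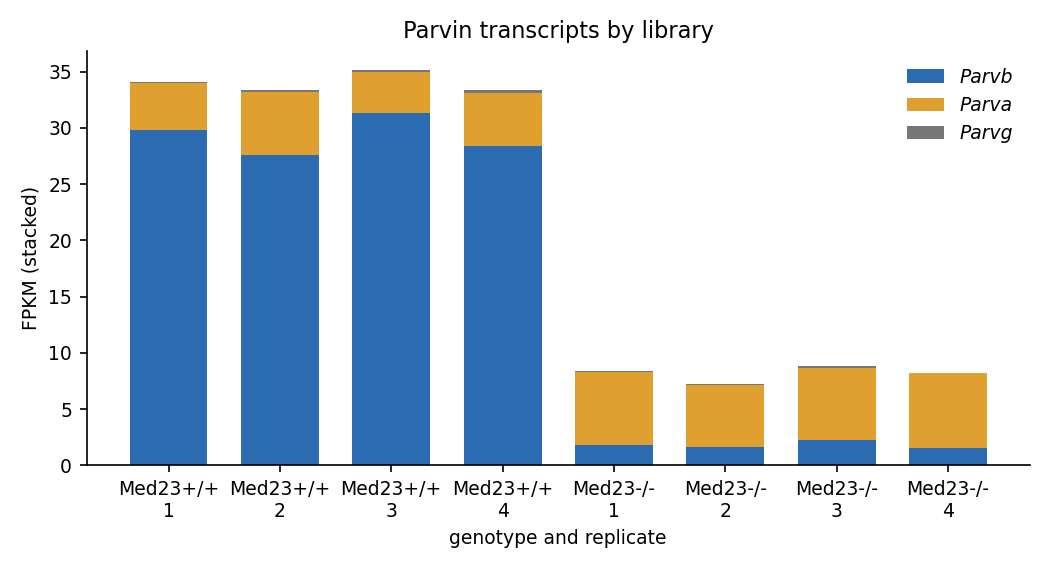
Stacked FPKM of Parvb, Parva and Parvg (y axis) in each of the 8 libraries (x axis). The bars reach 33.3 to 35.1 FPKM in Med23+/+ and 7.19 to 8.80 FPKM in Med23-/- libraries, and Parvb gives way to Parva as the larger part.

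Ilk had 53.1, 55.2, 66.3 and 65.8 FPKM across the Med23+/+ libraries, against 45.5, 42.2, 40.1 and 50.6 FPKM across the Med23-/- libraries. The genotypes did not overlap, all Med23-/- libraries being lower, although the gap between them was small, and replicates 3 and 4 stood above 1 and 2 in Med23+/+. The means were 60.1 ± 6.93 and 44.6 ± 4.55 FPKM (log2 fold change -0.42, SE 0.10). The hub transcript was thus lower by much less than Parvb. Relative to Ilk, the parvin sum was 0.571 ± 0.0633 in Med23+/+ and 0.184 ± 0.0251 in Med23-/- libraries.

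Ilk overlaps other genes on the opposite strand, and whether reads were counted by strand is not given in the sources used here, so reads of the overlapping parts may not be told apart. In the GENCODE annotation, 1533 nt of exons of Taf10, a general transcription factor subunit, cover 81.7% of the Ilk exons, and exons of Rrp8 cover 17.0% (319 nt). The exons of all transcript models of a gene were joined for this. Taf10 had 49.7, 49.8, 55.6 and 58.4 FPKM in Med23+/+ and 45.7, 32.4, 33.6 and 44.2 FPKM in Med23-/- libraries. It was lower in Med23-/- (log2 fold change -0.46, SE 0.12, limma adjusted p = 0.0204), as Ilk was. This call was lost without Med23+/+ replicate 3, Med23+/+ replicate 4 or Med23-/- replicate 3 (log2 fold changes of -0.44 to -0.39) and under quantile normalization (-0.36). Rrp8, which acts in ribosomal RNA transcription, did not pass the test (-0.29, limma adjusted p = 0.0677).

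Lims1, which encodes PINCH1, had 39.6, 47.7, 42.2 and 39.7 FPKM in Med23+/+ and 33.2, 39.7, 42.9 and 38.5 FPKM in Med23-/- libraries. The genotypes overlapped, with means of 42.3 ± 3.79 and 38.6 ± 4.04 FPKM (log2 fold change -0.13, SE 0.10). With each library left out in turn this value ran from -0.18 to -0.06, and under quantile normalization it was -0.03. Lims2, which encodes PINCH2, had 85.5, 90.1, 81.0 and 85.4 FPKM in Med23+/+ and 73.7, 79.2, 56.1 and 42.0 FPKM in Med23-/- libraries. The genotypes did not overlap, but the Med23-/- libraries spread widely, with replicate 4 the lowest and replicate 2 just under the lowest Med23+/+ library. The means were 85.5 ± 3.72 and 62.7 ± 17.0 FPKM (log2 fold change -0.48, SE 0.17), and without Med23-/- replicate 4 the log2 fold change was -0.31.

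Lims2 also has a neighbor on the opposite strand. Exons of Gpr17, the gene of a receptor that marks differentiation-committed oligodendrocyte precursors, overlap 188 nt or 10.1% of the Lims2 exons. Gpr17 was more abundant than Lims2, at 721, 707, 708 and 657 FPKM in Med23+/+ and 405, 481, 348 and 187 FPKM in Med23-/- libraries. It was lower in Med23-/- (log2 fold change -1.05, SE 0.24, limma adjusted p = 0.00991). The 4 Med23-/- libraries stood in the same order for Lims2 and Gpr17, replicate 2 highest and replicate 4 lowest, while the Med23+/+ libraries did not. The part of the shared sequence in the Lims2 values was not tested.

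**Figure D3:**
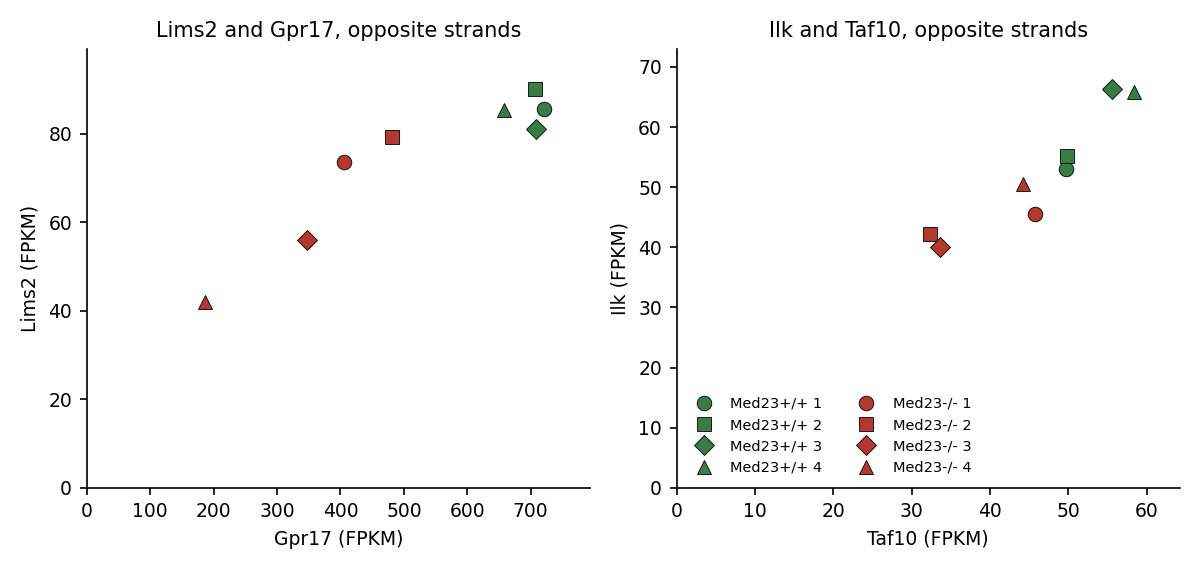
FPKM of Lims2 against Gpr17 (left) and of Ilk against Taf10 (right) in the 8 libraries, by genotype (color) and replicate (marker), on linear axes from 0. The Med23-/- libraries run from 42.0 to 79.2 FPKM of Lims2 as Gpr17 runs from 187 to 481 FPKM.

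The PINCH sum, Lims1 plus Lims2, was 125, 138, 123 and 125 FPKM in Med23+/+ and 107, 119, 99.0 and 80.5 FPKM in Med23-/- libraries. The Med23-/- mean was 0.793 of the Med23+/+ mean (101 ± 16.1 against 128 ± 6.72 FPKM), and 0.747 to 0.847 of it with each library left out in turn. Lims2 was the larger part in all 8 libraries, on average 66.9% of the sum in Med23+/+ (65.4% to 68.3%) and 61.1% in Med23-/- (52.1% to 69.0%), with overlap. The ratio of the PINCH sum to Ilk also overlapped between the genotypes, at 2.15 ± 0.321 and 2.31 ± 0.515. The ratio of the parvin sum to Ilk, by contrast, did not overlap.

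Rsu1 had 37.8, 42.6, 56.1 and 55.0 FPKM in Med23+/+ and 43.1, 33.5, 36.7 and 53.3 FPKM in Med23-/- libraries. The genotypes overlapped widely (47.9 ± 9.11 against 41.7 ± 8.74 FPKM, log2 fold change -0.20, SE 0.17), and the value ran from -0.32 to -0.10 with each library left out in turn. Replicates 3 and 4 were again the highest of the Med23+/+ libraries. The ratio of Rsu1 to the PINCH sum was 0.377 ± 0.0823 and 0.430 ± 0.163.

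Of the 6 genes tested in the fit over all genes, Parvb and Ilk met the call rule of a limma adjusted p under 0.05 and were lower in Med23-/-, and Parva met it and was higher. Over all 12328 genes tested, 14.1% were called lower and 15.9% higher. Adding a fold change above 2 on the log2(FPKM + 1) scale left only Parvb of these genes, against 1.75% of all genes called lower and 2.98% called higher. The libraries of the genotypes did not overlap for Parvb, Ilk and Lims2, 3 of 6, against 31.6% of all genes. These genes were chosen from this comparison, so nothing is read from these counts. The median log2 fold change over all genes tested was -0.01.

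Within Med23+/+ libraries the order of mean FPKM, a level per transcript length, was Lims2 (85.5), Ilk (60.1), Rsu1 (47.9), Lims1 (42.3), Parvb (29.3), Parva (4.53) and Parvg (0.155). Ilk and Rsu1 overlapped, as did Rsu1 and Lims1, and the other neighbors in this order did not. In Med23-/- libraries the order was Lims2 (62.7), Ilk (44.6), Rsu1 (41.7), Lims1 (38.6), Parva (6.26), Parvb (1.82) and Parvg (0.0637). The first 3 each overlapped the next, while Lims1, Parva, Parvb and Parvg were each separate from the one that followed. The order changed between the genotypes at Parva and Parvb alone.

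The genes on either side of Parvb were tested, since they had no part in the choice. Of the 3 coding genes before it, Pnpla5 was listed at 0 in every library. Pnpla3, a lipid hydrolase gene, averaged 2.83 ± 0.282 FPKM in Med23+/+ iOLs against 1.82 ± 0.0758 FPKM (log2 fold change -0.44, SE 0.10, limma adjusted p = 0.00863). Samm50, which encodes a mitochondrial outer membrane assembly factor and is the nearest gene before Parvb, had 35.5 ± 2.11 and 31.3 ± 1.53 FPKM and did not pass the test (-0.18, limma adjusted p = 0.0994). On the other side, beyond Parvg, Shisal1 fell from 35.8 FPKM (30.7 to 42.5) to 24.4 FPKM (20.8 to 27.5) on average (log2 fold change -0.53, SE 0.11, limma adjusted p = 0.00710), and Rtl6 had 10.8 ± 1.54 and 9.91 ± 1.74 FPKM (-0.12, limma adjusted p = 0.541). Thus 2 of the 4 neighbors tested were called lower, against 14.1% of all genes, and each differed by less than Parvb.

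The 8 genes whose profile was nearest to Parvb were found by the Euclidean distance between log2(FPKM + 1) values centred per gene over the 8 libraries. Those named here were Rassf10 (distance 0.438), Mag (0.783), Gp1bb (1.12), S100b (1.30), Enpp6 (1.43), Id1 (1.46) and Pim3 (1.49), against a median distance of 4.87 over 12327 genes. Mag encodes a myelin protein, Enpp6 marks newly forming oligodendrocytes, S100b encodes a calcium-binding protein of glia, and Id1 encodes an inhibitor of basic helix-loop-helix factors. Rassf10, which encodes a Ras-association domain protein, had 16.6, 13.4, 18.2 and 12.3 FPKM in Med23+/+ and 0.547, 0.646, 0.755 and 0.206 FPKM in Med23-/- libraries. Mag had 11.9, 11.6, 19.6 and 13.8 FPKM and 0.699, 0.597, 1.47 and 0.675 FPKM. None of the other members of the complex tested was among these genes. Lims2 (distance 4.24) ranked 993 of the 12327 genes and Ilk (4.29) ranked 1126, nearer to Parvb than most genes. Rsu1 (4.64, rank 3450) and Lims1 (4.68, rank 3938) were also below the median distance, and Parva (5.45, rank 10376) was above it. The distance rests mostly on the gap between the genotypes, which chose Parvb.

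**Figure D4:**
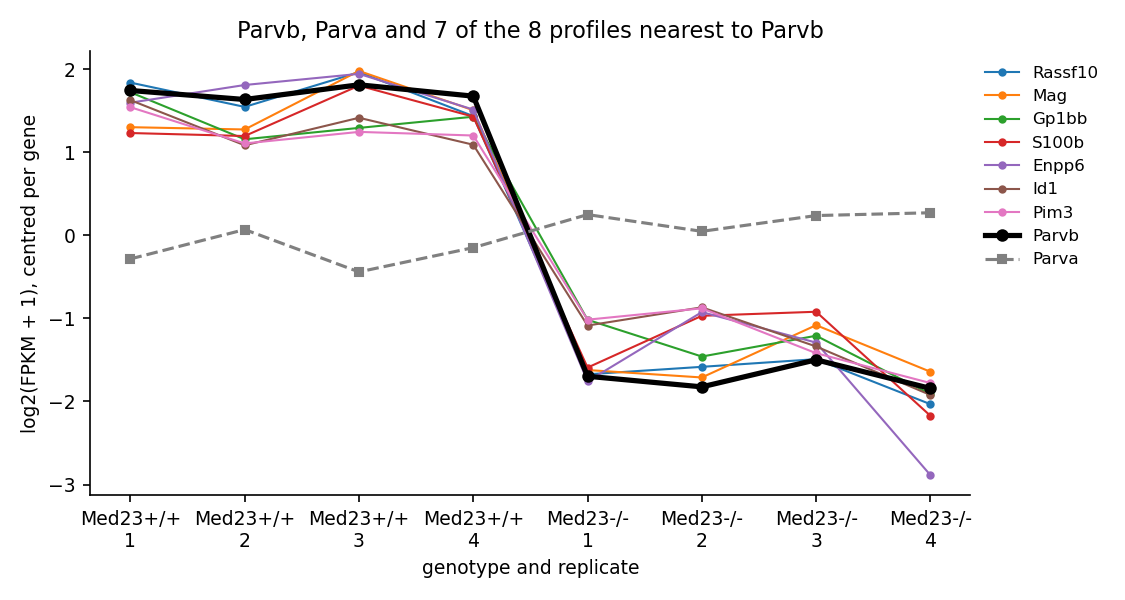
Log2(FPKM + 1) centred per gene (y axis) in the 8 libraries (x axis) for Parvb (thick black), 7 of the 8 genes nearest to it (thin colored lines) and Parva (dashed grey), with lines joining the values of one gene. These 7 genes drop between the genotypes as Parvb does, whereas Parva does not.

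The proteins around the complex were described from 6 lists of integrin adhesion genes that hold none of the 7 genes. Of 105 genes listed, 79 were tested. Of these, 20 were lower and 15 higher in Med23-/- (limma adjusted p under 0.05), 44 did not pass, and the median log2 fold change was -0.09 against -0.01 over all genes. Over all genes tested, 14.1% were called lower and 15.9% higher. With a fold change above 2 on the log2(FPKM + 1) scale as well, 3 of the 79 were lower and 3 higher. By that rule 1.75% of all genes tested were lower and 2.98% higher. With a ratio of mean FPKM above 2 in its place, 4 of the 79 were lower and 3 higher. Of all 12328 genes tested, 278 were lower and 681 higher by this rule. Both directions were present in each list. The neuron and oligodendrocyte lineage marker sums given above differed between the same libraries, and their part in these counts was not tested.

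Of 21 integrin subunits, 9 were tested, 1 fell and 4 rose, with a median log2 fold change of 0.41. Itgb1, the β1 subunit that recruits ILK, was the most abundant, with 102, 116, 128 and 115 FPKM in Med23+/+ and 80.8, 89.4, 102 and 98.5 FPKM in Med23-/- libraries. The genotypes met at 102 FPKM (log2 fold change -0.31, SE 0.10, limma adjusted p = 0.0394), and the call was lost without Med23+/+ replicate 2, 3 or 4 or Med23-/- replicate 1 or 2 (-0.31 to -0.25) and under quantile normalization (-0.20). Itga9, whose α9 subunit pairs with β1, rose from 3.26 ± 0.568 to 15.0 ± 1.34 FPKM (1.91, SE 0.12, limma adjusted p = 1.86e-05). Itga8, another partner of β1, rose from 0.994 ± 0.297 to 6.29 ± 3.55 FPKM (1.76, SE 0.29, limma adjusted p = 0.00166), highest in Med23-/- replicate 4 at 11.3 FPKM. Itgb8, the β8 subunit that pairs with αv, rose from 39.9 ± 3.91 to 77.7 ± 12.1 FPKM (0.94, SE 0.12, limma adjusted p = 0.000506). Itga6, the laminin receptor subunit, had 4.02 ± 1.64 and 3.87 ± 0.581 FPKM and did not pass (limma adjusted p = 0.981). Its Med23+/+ libraries were split, with 5.53 and 5.35 FPKM in replicates 1 and 2 and 2.76 and 2.45 FPKM in replicates 3 and 4. The Med23-/- libraries, at 3.48 to 4.72 FPKM, lay between them. Itga6 was chosen after its values were seen.

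Of 22 integrin activators and scaffold proteins, 15 were tested, 6 fell and 2 rose (median -0.19). The tensin genes Tns3 and Tns1, whose products link integrin tails to actin, fell from 134 ± 11.5 to 63.9 ± 12.7 FPKM (log2 fold change -1.08, limma adjusted p = 0.000440) and from 2.23 ± 0.485 to 0.605 ± 0.0859 FPKM (0.271 of the Med23+/+ mean, limma adjusted p = 0.000707). Pxn, which encodes paxillin, a direct partner of parvins and ILK, fell from 32.3 ± 2.43 to 18.0 ± 2.64 FPKM (-0.82, limma adjusted p = 0.000474). Fermt2, which encodes kindlin-2, the activator that binds both β-integrin and ILK, fell from 56.6 ± 6.33 to 39.1 ± 2.58 FPKM (-0.52, limma adjusted p = 0.00268). The talin genes differed, since Tln1 had 29.9 ± 4.19 and 25.6 ± 2.23 FPKM and did not pass (-0.21, limma adjusted p = 0.176), while Tln2 passed at 12.7 ± 1.83 and 16.1 ± 0.833 FPKM (0.33, limma adjusted p = 0.0348). The call for Tln2 was lost in 6 of the 8 fits that left out 1 library, all but those without Med23+/+ replicate 3 or Med23-/- replicate 2 (0.25 to 0.34), and with no filter on the mean. Kank3 rose from 1.63 ± 0.212 to 2.61 ± 0.394 FPKM (0.45, limma adjusted p = 0.0187), a call lost without Med23-/- replicate 1 (0.39) and under quantile normalization (0.29). Fermt2 and Tln1 were chosen after their values were seen, and their results were not checked in fits that left out a library or changed the processing.

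**Figure D5:**
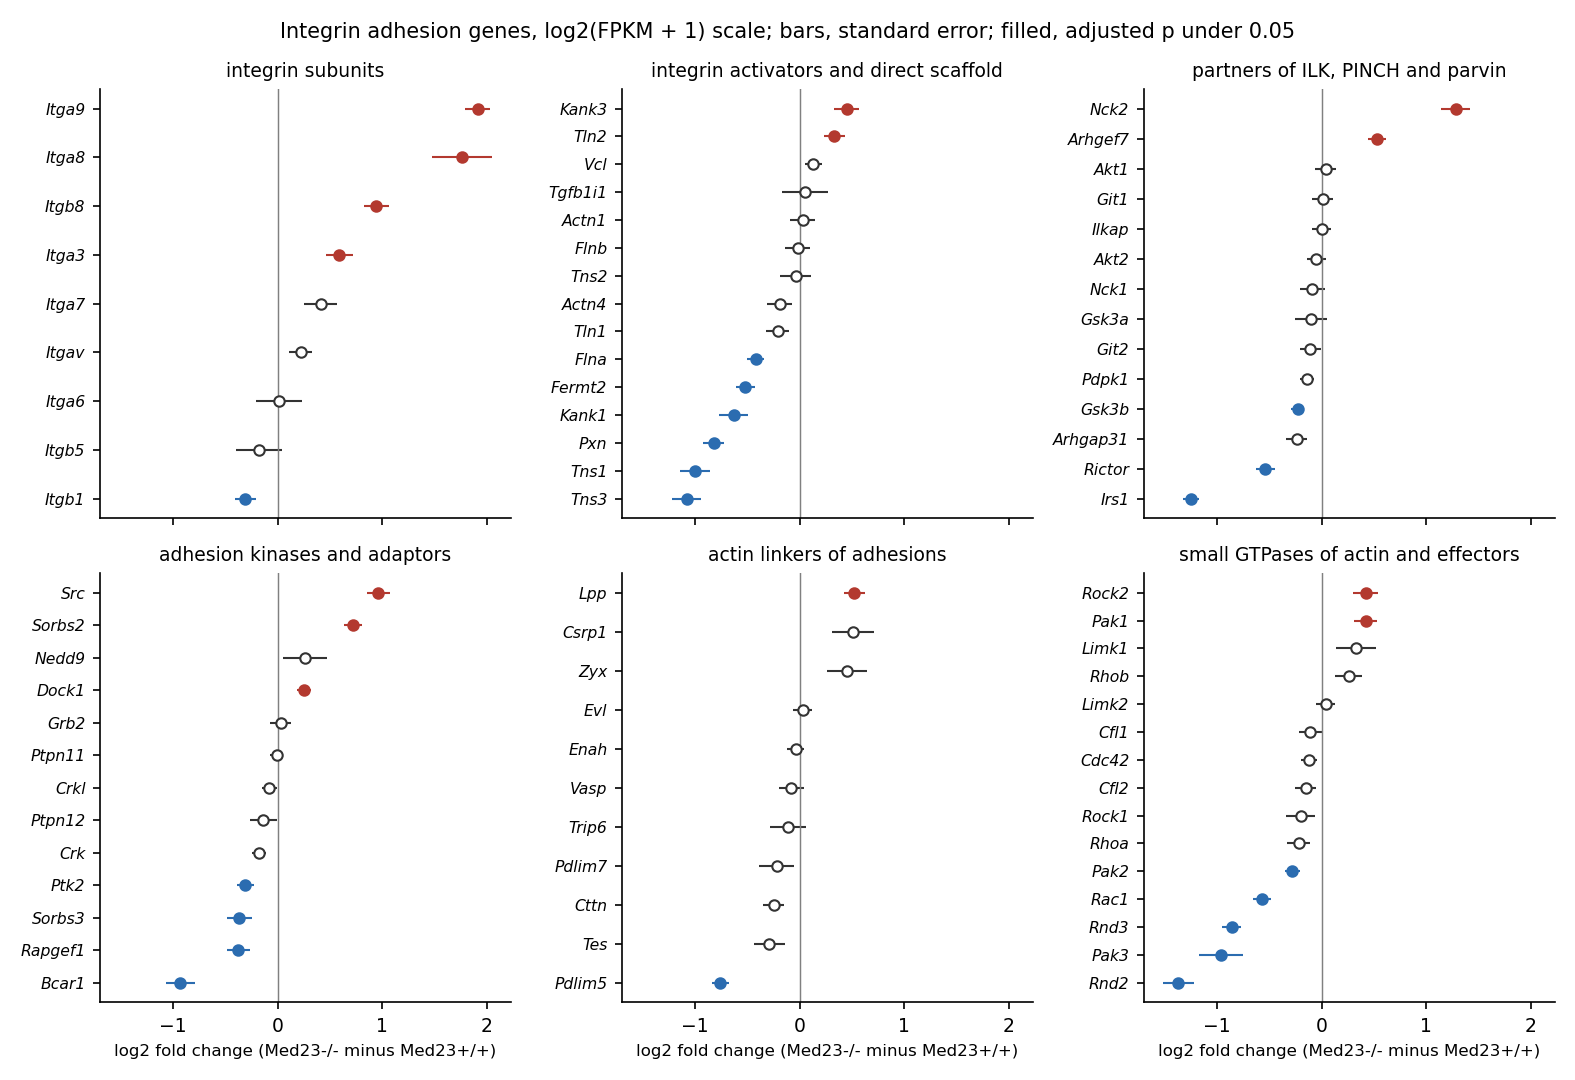
Log2 fold change on the log2(FPKM + 1) scale, Med23-/- minus Med23+/+ (x axis), of 77 of the 79 genes tested in the 6 adhesion lists (y axis, one panel per list), with bars for the standard error. Filled points passed a limma adjusted p of 0.05, lower in blue and higher in red, and open points did not, which gives 20 lower, 14 higher and 43 not called among the genes drawn.

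Of 17 listed partners of ILK, PINCH and parvin, 15 were tested, 3 fell and 2 rose (median -0.10). Irs1, the insulin receptor substrate, fell from 23.4 ± 1.40 to 9.28 ± 0.770 FPKM (log2 fold change -1.25, limma adjusted p = 1.96e-05), and Rictor, a subunit of mTORC2 that binds ILK, fell from 22.2 ± 1.35 to 15.1 ± 1.83 FPKM (-0.54, limma adjusted p = 0.00258). Nck2, the adaptor that binds PINCH1, rose from 4.25 ± 0.633 to 11.8 ± 2.31 FPKM (1.28, limma adjusted p = 0.000212), while its paralog Nck1 had 14.8 ± 2.16 and 13.8 ± 1.91 FPKM and did not pass (-0.09, limma adjusted p = 0.612). Arhgef7, which encodes the exchange factor β-PIX, rose from 33.0 ± 2.05 to 48.4 ± 4.93 FPKM (0.53, limma adjusted p = 0.00186). Its paralog Arhgef6, α-PIX, the known partner of β-parvin, was too low to be tested, at no more than 0.814 FPKM in any library. Gsk3b, a kinase downstream of AKT, fell from 73.7 ± 2.06 to 62.8 ± 1.83 FPKM (-0.23, limma adjusted p = 0.0236), a call lost without Med23+/+ replicate 1 or 3 or Med23-/- replicate 1 (-0.22 to -0.21) and under quantile normalization (-0.12). Akt1 and Akt2 did not pass, with log2 fold changes of 0.04 and -0.05. Tesk1, which encodes a kinase that binds parvins and is not counted in the list, had 13.1 ± 1.57 and 10.8 ± 1.71 FPKM and did not pass (-0.27, limma adjusted p = 0.129). Nck1, Arhgef6, Akt1, Akt2 and Tesk1 were chosen after their values were seen.

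Of 15 adhesion kinases and adaptors, 14 were tested, 4 fell and 4 rose (median -0.05). Bcar1, which encodes the scaffold p130Cas, fell from 40.1 ± 4.23 to 20.9 ± 4.37 FPKM (log2 fold change -0.93, limma adjusted p = 0.00115), and Src, the kinase that phosphorylates it, rose from 18.7 ± 2.83 to 37.1 ± 2.51 FPKM (0.96, limma adjusted p = 0.000219). The adaptor gene Sorbs2 rose (0.72, limma adjusted p = 0.000443), while Sorbs3, which encodes vinexin, was lower (-0.37, limma adjusted p = 0.0480). The Sorbs3 call was lost without Med23+/+ replicate 1, 3 or 4 or Med23-/- replicate 1, 2 or 3 (-0.38 to -0.30), with no filter on the mean, with the replicate block and with replicates 1 and 2 against 3 and 4 as a covariate. Rapgef1, an exchange factor for Rap1, was lower (-0.38, limma adjusted p = 0.0242), a call lost without Med23+/+ replicate 1 or 2 or Med23-/- replicate 3 or 4 (-0.37 to -0.31) and under quantile normalization (-0.27). Among 11 of 15 actin linkers tested, Pdlim5 fell from 63.4 ± 5.27 to 37.0 ± 0.759 FPKM (-0.76, limma adjusted p = 0.000124) and Lpp rose from a range of 1.63 to 2.04 FPKM to one of 2.76 to 3.32 FPKM (0.52, limma adjusted p = 0.00456), and the other 9 did not pass.

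All 15 genes of small GTPases that act on actin and of their effectors were tested, 5 fell and 2 rose (median -0.15). Rnd2, an atypical small GTPase, fell from 314 ± 53.0 to 121 ± 21.1 FPKM (log2 fold change -1.37, limma adjusted p = 0.000240), and its relative Rnd3 fell from 21.3 ± 1.94 to 11.3 ± 1.17 FPKM (-0.86, limma adjusted p = 0.000208). The p21-activated kinase genes went both ways, with Pak3 falling from 37.0 ± 4.72 to 19.3 ± 6.15 FPKM (-0.96, limma adjusted p = 0.00788) and Pak1 rising from 20.4 ± 0.509 to 27.9 ± 4.90 FPKM (0.42, limma adjusted p = 0.0208). Rac1, the GTPase that drives lamellipodia, fell from 290 ± 3.96 to 196 ± 23.6 FPKM (-0.57, limma adjusted p = 0.00189). Rac1 was chosen after its values were seen, and its call was not checked in fits that left out a library or changed the processing. Rock2, a kinase gene of the same list, rose from 11.9 ± 0.893 to 16.4 ± 2.93 FPKM (0.42, limma adjusted p = 0.0253), a call lost without Med23+/+ replicate 1 or 3 or Med23-/- replicate 3 (0.38 to 0.40).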

How the data were processed

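RNA-seq was analysed in 8 libraries, 4 per genotype as the labels give them. Before deposit, reads passed through FastQC and Cutadapt and were mapped by the authors with Tophat2 (default parameters, mm10), and cuffdiff gave gene levels with its -b and -u options (bias and multi-read correction). Versions, the annotation, the strand setting and the library normalization are not given in the sources used here. The authors deposited FPKM per gene and library, which were used here as log2(FPKM + 1). Deposited columns of FPKM per genotype, fold changes, test statistics, p-values and q-values were not used, and 0 library columns belonged to other samples.

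The genotypes were compared over 12328 genes (mean FPKM of 1 or more) by limma 3.58.1 under R 4.3.3 (lmFit, eBayes with a mean-variance trend, no block), with Benjamini-Hochberg adjustment over all of them and a call at an adjusted p under 0.05. Since the labels do not state separate cultures or animals for each library, p-values measure only the spread between these samples. On simulated data with 200 of 12328 genes changed, 196 were called, with 8 of the others. The changed genes were drawn from the more abundant genes only, with changes of 2-fold or more and independent normal errors. Recovery of smaller changes or of low genes was therefore not tested. In the libraries themselves 1738 genes were called lower and 1957 higher, and recovery with so many genes changed was not tested either.

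Members and lists were chosen with earlier results of these data known. Named genes were the 7 members, Med23, up to 3 called genes with the lowest and 3 with the highest log2 fold change in each list, the 8 genes nearest to Parvb and the 3 coding neighbors on each side of it. Gpr17, Taf10 and Rrp8 were added for their overlap with members. Some genes that meet this rule are left out of the text and plots. The list of partners held Tesk1 under a misspelled symbol (Testk1), so Tesk1 was tested but not counted in the list. Coordinates are from GENCODE vM21, promoter sequences from RefSeq (GRCm38.p6), in which 5 of the 7 members matched by symbol. A comparison of protein sequences between paralogs was planned and not run. Depth is unknown, so no counting error is given. Python 3.11.15, pandas 2.3.3 and matplotlib 3.10.9 were used. The alternatives were other pseudocounts, filters, scalings, variance models and call rules, the replicate number as a block, replicates 1 and 2 against 3 and 4 as a covariate, a shorter promoter window, and leaving out each library.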

Additional observations from a re-analysis of the deposited data

Results flagged for a closer look

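In 4 of 114 groups of 4 libraries that were tested, 1 library stood apart from the other 3 by Dixon's criterion, which chance meets in about 1 in 20 groups. Parva had 5.52 FPKM in Med23-/- replicate 2 and 6.43 to 6.61 FPKM in the other Med23-/- libraries (gap over range 0.839). The sum of Lims1 and Lims2 was 138 FPKM in Med23+/+ replicate 2 and 123 to 125 FPKM in the others (0.866). Samm50, the neighbor of Parvb, had 32.4 FPKM in Med23+/+ replicate 2 and 36.4 to 36.7 FPKM in the others (0.932). Mag, with the second nearest profile to Parvb, had 1.47 FPKM in Med23-/- replicate 3 and 0.597 to 0.699 FPKM in the others (0.883).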

How the results depend on the processing

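None of the fold changes recomputed changed sign. With a fold change above 2 on the log2(FPKM + 1) scale added to the call, 216 genes were lower and 367 higher (1738 and 1957 by adjusted p alone), and 3 and 3 of the adhesion genes (20 and 15). With a ratio of mean FPKM above 2 in its place, chosen after seeing the data, 278 genes were lower and 681 higher, and 4 and 3 of the adhesion genes. Among genes averaging 5 FPKM or more, 1517 were lower and 1281 higher, so the larger count turned from higher (53.0% of calls) to lower (45.8% higher). The log2 fold change of Parvb was -3.95 at a pseudocount of 0.1, where 4 of the 8 genes nearest to it were the same. With each library left out in turn, 1225 to 1667 genes were lower, 1556 to 1864 higher, and 17 to 20 adhesion genes lower and 13 to 17 higher. With the replicate block, 1835 genes were lower and 2085 higher, and 19 and 17 adhesion genes. Deviations of same-numbered libraries correlated at 0.130, -0.096, -0.026 and 0.159 and not every library was nearest to its own number. Med23+/+ replicate 1 correlated at 0.130 and 0.162 with Med23-/- replicates 1 and 2, and at -0.144 and -0.128 with 3 and 4. Med23+/+ replicate 4 correlated at -0.179 and -0.139 with Med23-/- replicates 1 and 2, and at 0.142 and 0.159 with 3 and 4. Med23+/+ replicates 2 and 3 did not split in this way. What the libraries share beyond a number was not tested. Over 34 named genes tested, 498 of 538 comparisons stayed on the same side of the threshold and 40 lost the call. Rrp8 and the genes chosen after their values were seen, Fermt2 and Rac1 among them, were not part of these 34. How their results hold under the alternatives was not checked. Without read counts, what depth limits could not be measured, and log2(FPKM + 1) understates changes of low genes such as Parvg.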
